A study of Mus musculus with 20 samples.

Results

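The interferon-inducible GTPases are proteins of host defence, and 10 of their genes were followed in the distal colon (DC) of mice fed resistant potato starch (RPS). The members were chosen by symbol: the guanylate-binding protein genes Gbp2, Gbp3, Gbp6, Gbp7 and Gbp9, and the immunity-related GTPase genes Irgm1, Irgm2, Igtp, Iigp1 and Ifi47. All 10 were found among the 26619 gene identifiers of the count table, and all 10 passed the filter on low counts with 17893 genes in all. The study asked how RPS acts on the large bowel when it is added to the Total Western Diet (TWD), a rodent diet that imitates what Americans typically eat. C57BL/6 mice ate the TWD for 6 weeks after weaning and then, for 3 weeks, the TWD with 0, 2, 5 or 10% RPS, with 5 mice per diet and no other treatment. RPS is raw potato starch, which is poorly digested and reaches the large bowel.

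Both families are induced by interferons, above all by interferon-gamma from T and natural killer (NK) cells, in part through the transcription factor IRF1. Guanylate-binding proteins are large GTPases that assemble on the vacuoles of intracellular pathogens and on bacteria in the cytosol, where they help to expose microbial products to the inflammasomes that drive pyroptosis. The immunity-related GTPases fall into regulators, which sit on the cell's own membranes and hold the others inactive (Irgm1, Irgm2 and Igtp), and effectors, which attack pathogen vacuoles (Iigp1 and Ifi47). Intestinal epithelium and immune cells both make them. The samples were bulk tissue, in which a change in the number of cells that make a transcript and a change in the transcript per cell cannot be told apart.

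Total counts ran from 31.3 to 35.0 megacounts per mouse at 0% RPS, 24.5 to 31.1 at 2%, 22.3 to 30.4 at 5% and 18.4 to 26.6 at 10%, so depth was lowest at 10% RPS. All 12 epithelial markers listed were present and summed to between 17077 and 25263 counts per megacount of the scaled library size (CPM). Of those 12, 11 were higher at 10% RPS than at 0%, as were 46.8% of all tested genes. Car4, a carbonic anhydrase of surface colonocytes, was called (edgeR adjusted p = 0.0102). The 7 posterior Hox genes listed for distal position were all present and all lower at 10% RPS, as were 9514 of the 17893 tested genes. Hoxb13 had a called trend (edgeR trend, adjusted p = 0.0425). The part of these markers in the members' levels was not tested. Diets were taken from the description label. The treatment label puts 3 mice elsewhere, mouse RS10_717 (5% RPS) at 2%, RS10_725 (10% RPS) at 5% and RS10_748 (2% RPS) at 10%. The library of RS10_721 (5% RPS) stood apart by its pancreas markers, at 6173 CPM against at most 877.8 CPM in the others.

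The start regions of these genes were read for the letters that interferon-activated factors are known to bind. RefSeq promoters of mouse assembly GRCm38.p6 were found for 7 members, and none is listed here for Gbp6, Gbp9 and Iigp1. The 250 bases before each start were searched on both strands for the interferon-stimulated response element, written GAAA, any 2 bases and GAAA and bound by factors such as IRF1, and for the gamma-activated site, written TTCNNNGAA. The first was present in 6 of the 7 members, against 2.98% of 32851 promoters of the same length, and the second in 3 of the 7, against 7.02%. Irgm2, Igtp and Gbp7 held both, which 0.332% of promoters did, and Ifi47 held neither in this window. The 5 windows below are those of the members with the highest level per gene length and of all members with both motifs, printed 5′ to 3′ on the gene's strand, with every match in capitals.
Irgm2: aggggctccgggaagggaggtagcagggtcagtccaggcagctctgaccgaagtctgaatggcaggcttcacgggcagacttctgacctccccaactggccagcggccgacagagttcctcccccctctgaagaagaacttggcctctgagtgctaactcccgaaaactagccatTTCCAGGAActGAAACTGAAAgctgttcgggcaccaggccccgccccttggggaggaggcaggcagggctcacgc
Igtp: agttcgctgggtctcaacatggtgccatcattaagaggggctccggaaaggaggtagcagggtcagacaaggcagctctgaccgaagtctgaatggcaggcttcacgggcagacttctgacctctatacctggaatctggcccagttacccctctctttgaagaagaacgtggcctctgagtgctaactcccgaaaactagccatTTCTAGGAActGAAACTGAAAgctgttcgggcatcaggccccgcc
Gbp7: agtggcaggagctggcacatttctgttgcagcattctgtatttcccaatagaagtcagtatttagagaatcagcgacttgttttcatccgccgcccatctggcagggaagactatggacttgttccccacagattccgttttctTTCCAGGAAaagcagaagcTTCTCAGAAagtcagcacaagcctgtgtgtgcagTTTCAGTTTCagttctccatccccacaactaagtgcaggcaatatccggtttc
Irgm1: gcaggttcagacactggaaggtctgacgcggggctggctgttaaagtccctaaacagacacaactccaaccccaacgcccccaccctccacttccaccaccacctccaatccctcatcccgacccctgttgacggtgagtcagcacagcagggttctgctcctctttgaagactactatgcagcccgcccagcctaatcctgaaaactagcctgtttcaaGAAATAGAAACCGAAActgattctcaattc
Gbp2: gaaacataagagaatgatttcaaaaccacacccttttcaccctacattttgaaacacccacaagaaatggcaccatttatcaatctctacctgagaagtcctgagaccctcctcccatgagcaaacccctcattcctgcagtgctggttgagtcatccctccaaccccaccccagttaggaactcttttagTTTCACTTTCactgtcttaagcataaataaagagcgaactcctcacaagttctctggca
They lie at chr11:58214727-58214976 (plus strand) for Irgm2, chr11:58199306-58199555 (plus) for Igtp, chr3:142530086-142530335 (plus) for Gbp7, chr11:48871421-48871670 (minus) for Irgm1 and chr3:142620413-142620662 (plus) for Gbp2. In Irgm2 and Igtp the gamma-activated site and the response element stand next to each other in a block of 21 bases, of which 20 are identical between the genes. The longest run of letters shared by those windows is 55 bases. In Gbp2 the match is on the opposite strand and ends 49 bases before the start. Gbp3 has 2 windows, of which 1 holds the response element. Members were counted by gene, with a match in any window, whereas the shares over all promoters were counted by promoter. A match is a description of letters and was not tested for binding.

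The members lie in clusters. In GRCm39, the build of the counts, Gbp7 (ENSMUSG00000040253, 142236044 to 142255910), Gbp3 (ENSMUSG00000028268, 142265731 to 142278979) and Gbp2 (ENSMUSG00000028270, 142326349 to 142343779) follow each other on the plus strand of chromosome 3. Gbp9 (ENSMUSG00000029298, 105224332 to 105287452) and Gbp6 (ENSMUSG00000104713, 105418568 to 105443751) lie on the minus strand of chromosome 5. On chromosome 11, Irgm1 (ENSMUSG00000046879, 48752795 to 48763164, minus strand) and Ifi47 (ENSMUSG00000078920, 48967412 to 48987813, plus) form one group, and Igtp (ENSMUSG00000078853, 58089840 to 58098417, plus) and Irgm2 (ENSMUSG00000069874, 58090444 to 58113615, plus) another. Iigp1 (ENSMUSG00000054072) is on chromosome 18. All 10 are protein coding.

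Every member was expressed in all 20 mice, with the least counts for Gbp6 (11 to 39 per library). Per kilobase of exon, Gbp2 was the most abundant at a mean of 17.6 CPM per kb, followed by Irgm2 at 6.23, Irgm1 at 5.58, Igtp at 2.80, Gbp3 at 2.52, Gbp7 at 1.90, Ifi47 at 1.81, Iigp1 at 0.909, Gbp9 at 0.526 and Gbp6 at 0.1005. The ranges over mice of Gbp2 (11.1 to 32.3 CPM per kb) and Irgm2 (4.69 to 9.79) did not overlap, whereas those of Irgm2 and Irgm1 (4.397 to 7.60) did. Summed over the members, CPM was 136.7 ± 23.5 at 0% RPS, 155.5 ± 21.6 at 2%, 149.7 ± 35.9 at 5% and 180.0 ± 44.1 at 10% (SD, n = 5). Gbp2 alone made up 29.0% of this sum and Irgm1 22.8%.

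Levels were highest at 10% RPS for 8 members and at 2% RPS for Gbp3 and Gbp9, and lowest at 0% RPS for 5 members and at 5% RPS for the other 5. Without RS10_725, the highest mean was at 10% RPS for 6 members, at 2% for Gbp3, Gbp9 and Igtp, and at 5% for Gbp2. No member was called in any comparison. A gene was called when the edgeR quasi-likelihood test gave an adjusted p of at most 0.05 over all tested genes and a fold change of at least 1.5. At 10% RPS against 0% RPS this held for 0 of 10 members and for 0.0391% of all genes. It held for 0% of all genes, and for 0 members, at 5% against 0%, 2% against 0%, 5% against 2% and 10% against 5% RPS. DESeq2 called 0 members at 10% RPS against 1.24% of all genes.

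**Figure D1:**
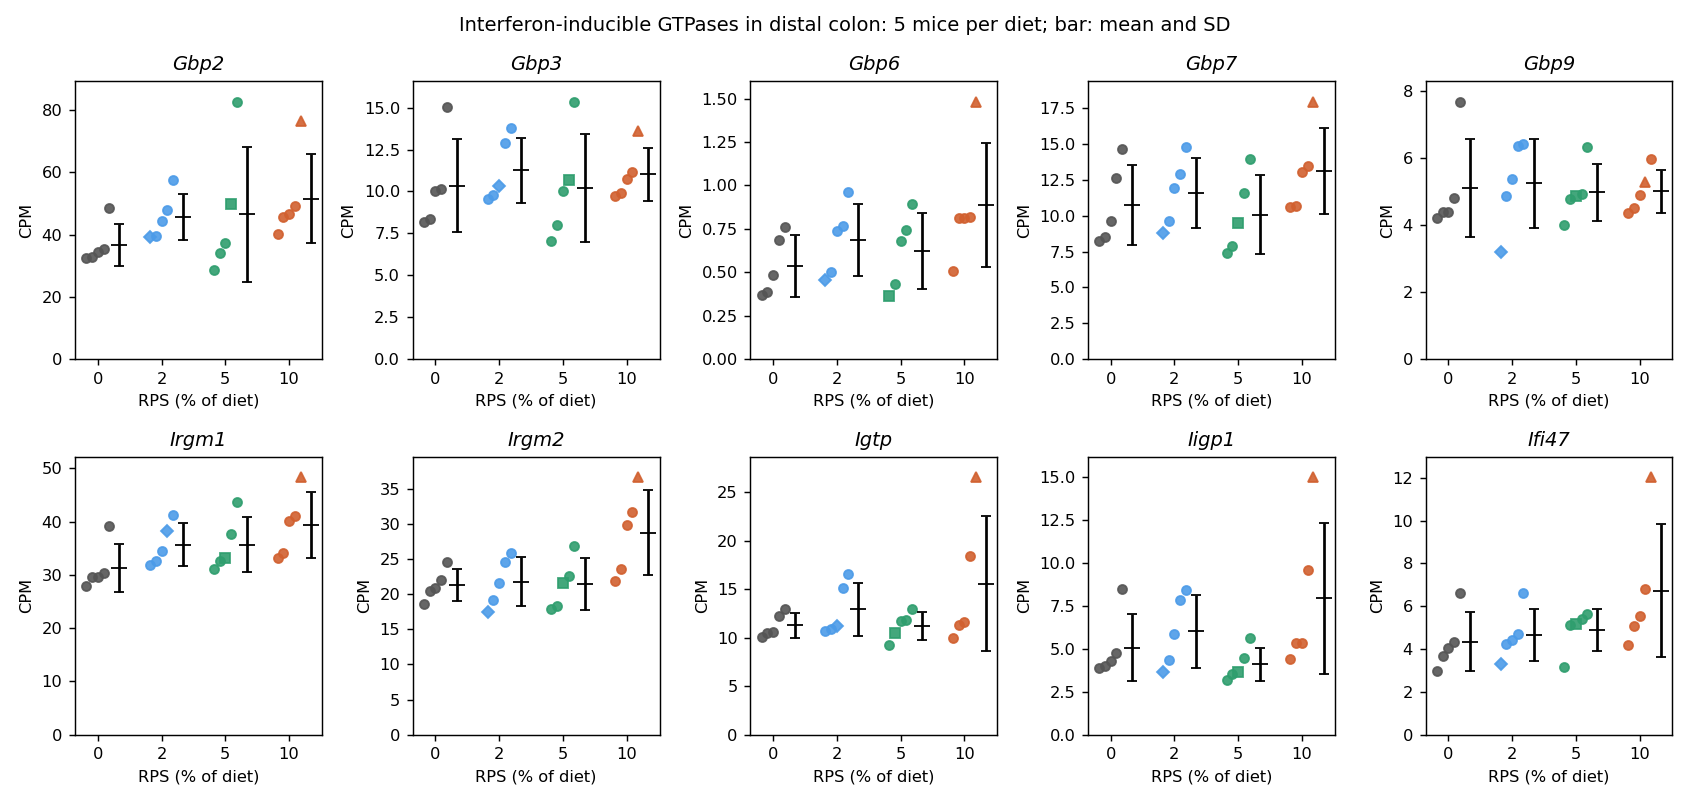
CPM (vertical axis, from 0) of each member by RPS percent of the diet (horizontal axis), with 1 point per mouse and the mean and SD of 5 mice as a bar. The triangle is mouse RS10_725, the square RS10_717 and the diamond RS10_748, whose labels disagree, and the triangle is the highest of all 20 mice for 7 of the 10 members.

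At an unadjusted p under 0.05, 5 of the 10 members (Gbp6, Irgm1, Irgm2, Igtp and Ifi47) were higher at 10% RPS, against 7.32% of all tested genes. Without RS10_725 this held for 2 of the 10, Irgm1 and Irgm2, against 7.09% of all tested genes. At 5% RPS this was 0 of 10 against 4.69%, and at 2% RPS 0 of 10 against 0.693%. The median log2 fold change of the members was 0.45 at 10% RPS, 0.00 at 5% and 0.16 at 2%, where the median of all tested genes was -0.01, -0.01 and -0.00098. Without RS10_725 the members' median at 10% RPS was 0.26. At 10% RPS, 9 of the 10 members had a log2 fold change above 0, with and without RS10_725, as did 46.8% of all tested genes with all mice in the fit. These comparisons share the 0% RPS mice. No member had its 5 mice at 10% RPS all above the 5 mice at 0% RPS, a pattern shown by 1.13% of all genes, and 0 members showed it at 5% RPS (0.464% of genes) or at 2% RPS (0.112%).

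**Figure D2:**
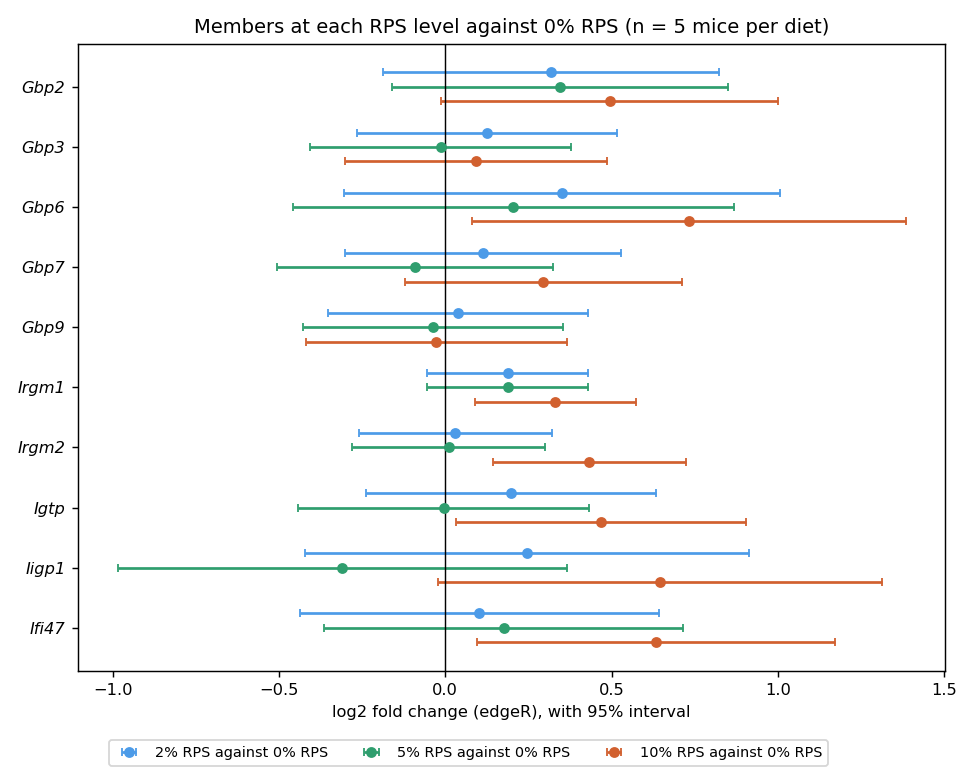
Log2 fold change of each member at 2, 5 and 10% RPS against 0% RPS by edgeR (horizontal axis), with the 95% interval as a line. The intervals at 10% RPS lay above 0 for Gbp6, Irgm1, Irgm2, Igtp and Ifi47 before adjustment, and each interval at 2 and 5% RPS held 0.

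Among the guanylate-binding protein genes, Gbp2 was the most abundant. In order of mouse number, as for all values by mouse, it measured 35.3, 48.4, 32.4, 32.8 and 34.4 CPM in the mice at 0% RPS, 39.4, 57.5, 47.9, 44.3 and 39.3 CPM at 2%, 49.8, 34.2, 82.8, 28.5 and 37.3 CPM at 5% and 76.5, 46.6, 40.1, 49.1 and 45.6 CPM at 10%. The 5% RPS group held both the highest and the lowest mouse of all 20, RS10_719 and RS10_721. Its log2 fold change at 10% RPS was 0.49 ± 0.24 (SE, n = 5 per diet, edgeR adjusted p = 0.340), and 2 of 5 mice lay above the highest control. Gbp7, which like Gbp2 is known for resistance to intracellular parasites, ran from 8.23 to 14.6 CPM in controls and from 10.6 to 17.9 CPM at 10%, and its log2 fold change was 0.30 ± 0.20 (edgeR adjusted p = 0.508).

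Gbp3 and Gbp9 had the smallest differences at 10% RPS. Gbp3 measured 10.3 ± 2.78 CPM in controls and 11.0 ± 1.56 CPM at 10% RPS, a log2 fold change of 0.09 with a 95% interval from -0.30 to 0.49. Gbp9 measured 5.11 ± 1.46 and 5.01 ± 0.651 CPM, a log2 fold change of -0.03 with an interval from -0.42 to 0.37, and its highest mouse was a control, RS10_703, at 7.69 CPM. The sign of Gbp9 depended on the setting and was positive without RS10_703 (log2 fold change of 0.18), by limma-voom and after thinning of all libraries to the smallest. Gbp6, the least expressed member, measured 0.536 ± 0.177 CPM in controls and 0.887 ± 0.358 CPM at 10% RPS. Its log2 fold change of 0.73 ± 0.31 had an edgeR adjusted p of 0.273, and 4 of 5 mice lay above the highest control.

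The regulators Irgm1 and Irgm2 had the smallest spread of the members and the smallest p-values at 10% RPS. Irgm2 measured 18.6, 24.6, 21.99, 20.9 and 20.5 CPM at 0% RPS, 19.2, 25.8, 24.6, 21.6 and 17.5 CPM at 2%, 21.6, 18.4, 26.9, 17.8 and 22.6 CPM at 5% and 36.6, 31.7, 21.9, 29.9 and 23.7 CPM at 10%. Levels at 0, 2 and 5% RPS lay over each other, while 3 of the 5 mice at 10% RPS exceeded the highest mouse of every other diet. The log2 fold change at 10% RPS was 0.43 ± 0.14 (edgeR adjusted p = 0.148), against 0.03 at 2% and 0.01 at 5%. Irgm1 ran from 27.9 to 39.1 CPM at 0% RPS, 31.8 to 41.2 at 2%, 31.0 to 43.7 at 5% and 33.2 to 48.3 at 10%. All 5 mice of every RPS diet lay above the median control for Irgm1, and its log2 fold changes were 0.19, 0.19 and 0.33 at 2, 5 and 10% RPS, with an edgeR adjusted p of 0.183 at 10%.

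Igtp, the third regulator, was set apart by a pair of mice at 10% RPS. It measured 10.5, 12.9, 10.5, 10.0 and 12.2 CPM at 0% RPS, 10.7, 16.6, 15.1, 10.9 and 11.2 CPM at 2%, 10.5, 9.21, 11.8, 11.7 and 12.99 CPM at 5% and 26.5, 18.4, 9.98, 11.6 and 11.3 CPM at 10%. RS10_725 and RS10_727 were the highest of all 20 mice, and the other 3 mice at 10% RPS lay at the level of the controls. The log2 fold change at 10% RPS was 0.47 ± 0.21 (edgeR adjusted p = 0.299).

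The effectors followed the same mice. Iigp1, which coats and ruptures parasite vacuoles, measured 3.88, 8.51, 3.98, 4.28 and 4.73 CPM at 0% RPS, 5.87, 7.82, 8.45, 4.33 and 3.63 CPM at 2%, 3.67, 3.18, 5.62, 3.56 and 4.46 CPM at 5% and 15.0, 9.58, 4.44, 5.36 and 5.33 CPM at 10%. Again RS10_725 and RS10_727 were the highest, and the control RS10_703 came next. Its log2 fold change was 0.65 ± 0.32 at 10% RPS and -0.31 ± 0.32 at 5% RPS (edgeR adjusted p = 0.344 and 0.795). Ifi47 measured 4.34 ± 1.37 CPM at 0% RPS, 4.66 ± 1.23 at 2%, 4.90 ± 0.983 at 5% and 6.72 ± 3.11 at 10%, with 12.02 CPM in RS10_725 and a log2 fold change of 0.63 ± 0.26 (edgeR adjusted p = 0.247).

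Neighbouring diets were also compared. Between 5 and 10% RPS the log2 difference was 0.95 ± 0.32 for Iigp1, 0.47 ± 0.21 for Igtp and 0.42 ± 0.14 for Irgm2, the 3 members with an unadjusted p under 0.05 there, against 2.94% of all genes, and each had an edgeR adjusted p of 0.841. Without RS10_725 these differences were 0.59 ± 0.29, 0.20 ± 0.17 and 0.33 ± 0.14, and 1 of the 10 members, Irgm2, had an unadjusted p under 0.05, against 2.51% of all genes. Between 2 and 5% RPS, 0 of the 10 members had an unadjusted p under 0.05, where 3.68% of all genes were higher at such a p, and 7 members were lower at 5%, as were 51.4% of all genes. Over the whole range a linear trend was fitted, which was called on the adjusted p alone and which edgeR called for 0 of 10 members and 2.1% of all genes. Before adjustment 4 members had a rising trend with p under 0.05 (Gbp6, Irgm1, Irgm2 and Ifi47), against 9% of all genes, and without RS10_725 this was 1 member, Irgm2, against 8.93%. The smallest adjusted trend p was that of Irgm2, at 0.0745 for a log2 change of 0.43 ± 0.13 per 10% RPS. DESeq2 called this trend (adjusted p = 0.0367) and no other member's, against 5.61% of all genes. The test of any difference between the 4 diets called 0 members and 0.0727% of genes, with the smallest adjusted p again for Irgm2 (0.300).

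The differences at 10% RPS were smaller without 1 mouse. Without RS10_725, the log2 fold change at 10% RPS was 0.31 for Gbp2, 0.46 for Gbp6, 0.16 for Gbp7, 0.25 for Irgm1, 0.33 for Irgm2, 0.19 for Igtp, 0.28 for Iigp1 and 0.31 for Ifi47, and edgeR called 0 members. The values of Igtp, Iigp1 and Ifi47 moved more than those of Irgm1 and Irgm2. Without the control RS10_703 the values were larger, at 0.92 for Iigp1, 0.84 for Ifi47 and 0.43 for Irgm1, still with 0 members called at 10% RPS. With groups by the treatment label, the log2 fold changes at 10% RPS were 0.27 for Gbp2, 0.33 for Gbp6, 0.08 for Gbp7, 0.25 for Irgm1, 0.23 for Irgm2, 0.15 for Igtp and Iigp1 and 0.19 for Ifi47. The trend of Irgm2 was called without RS10_703 (edgeR adjusted p = 0.0411) and not without RS10_725 (0.207).

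Log2 CPM was standardised over the 20 mice, and the members tended to vary together from mouse to mouse. With each diet's mean removed, the median Pearson r over the 45 pairs of members was 0.64. Not every pair moved together within each diet of 5 mice. At 5% RPS, Gbp2 and Gbp9 had r = -0.87, and at 2% RPS, Gbp2 and Irgm1 had r = 0.06. RS10_725 had the highest mean of the 10 members, at 2.10 SD, and was the highest mouse for 7 of them. Next came RS10_703 (0% RPS) at 0.933, RS10_715 (2%) at 0.886, RS10_727 (10%) at 0.745 and RS10_719 (5%) at 0.708, so that each diet held at least 1 mouse with high levels. The lowest were RS10_718 (5%) at -1.04 and RS10_701 (0%) at -0.950. Per diet this mean ran from -0.950 to 0.933 at 0% RPS, -0.784 to 0.886 at 2%, -1.04 to 0.708 at 5% and -0.298 to 2.10 at 10%.

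**Figure D3:**
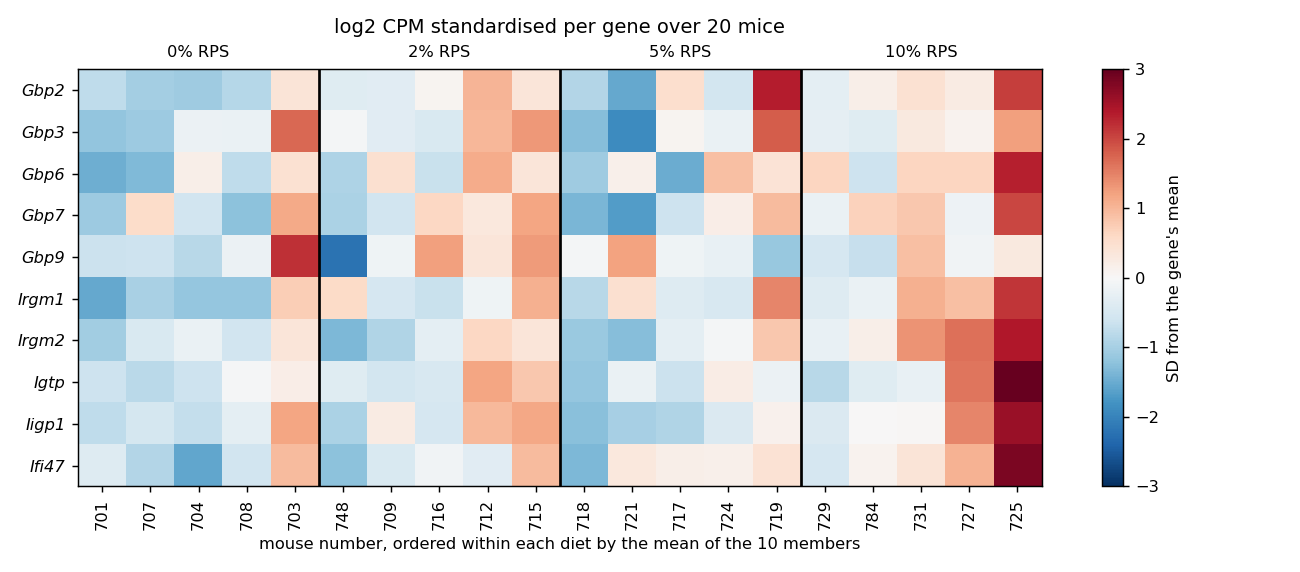
Log2 CPM of each member (rows) in each mouse (columns, by mouse number, ordered within each diet by the mean of the members), standardised per gene over 20 mice and coloured in SD from the gene's mean. Red is above the mean. The column of RS10_725 is red in all 10 rows, and in the column of RS10_719 Gbp9 is blue where Gbp2 and Gbp3 are red.

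Markers of T and NK cells, the usual source of interferon-gamma, moved with some of these mice. All 12 listed were present and none was at 0 in every library. They summed to 18.4 to 30.7 CPM at 0% RPS, 15.5 to 29.0 at 2%, 18.9 to 22.8 at 5% and 18.3 to 28.8 at 10%. The 3 highest sums were those of RS10_703 (30.7 CPM), RS10_715 (29.0 CPM) and RS10_725 (28.8 CPM), which were also the 3 mice with the highest mean of the members. RS10_727, high in Igtp and Iigp1, had 18.9 CPM, the rank of 15 among 20. Over the 20 mice, the log2 sum of T and NK cell markers had a Pearson r of 0.55 with the mean of the members. For B cell markers it was 0.30 and for macrophage markers 0.23. By the sum of macrophage markers, RS10_703, RS10_715, RS10_725 and RS10_727 ranked 2, 4, 5 and 6. The controls RS10_708 and RS10_701 ranked 1 and 3, and their means of the members were -0.584 and -0.950 SD. The 10 macrophage markers summed to between 284.6 and 531.1 CPM in controls and between 269.0 and 361.2 CPM at 10% RPS, and the 8 B cell markers to 12.1 to 118.7 and 76.2 to 141.4 CPM. At 10% RPS, 7 of the 10 tested T and NK cell markers, 9 of the 10 macrophage markers and all 8 endothelial markers were lower than at 0%. Of all 17893 tested genes, 9514 were lower and 8379 higher. The median sum of the T and NK cell markers was 22.3 CPM at 0% RPS and 22.1 CPM at 10%. The trend was called for the endothelial Cldn5 (edgeR trend, adjusted p = 0.0404). All 8 B cell markers were higher and none was called. The part of these cells in the members' levels was not tested.

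The members varied more between mice of one diet than other genes of like level. The SD of log2 CPM within diets was 0.53 for Iigp1, 0.43 for Ifi47, 0.39 for Gbp2, 0.35 for Igtp and 0.34 for Gbp7, where the median over the 500 genes nearest in level was 0.26, 0.26, 0.14, 0.20 and 0.21. Gbp6 was the exception, at 0.46 against 0.45. Irgm1 had the lowest spread of the members, at 0.19 against 0.15.

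How closely the members follow each other was measured by the correlation of log2 CPM over the 20 mice for all 45 pairs. The median Pearson r was 0.67, and 37 of 45 pairs had an adjusted permutation p of at most 0.05, by Pearson's r and by Spearman's coefficient alike. The permutations moved mice across diets. Pairs of other genes were not counted, so the share of all gene pairs at such a p is not given. The closest pair was Igtp and Iigp1, on different chromosomes, with r = 0.89 and Spearman's coefficient = 0.75 (permutation p of 1e-05, the smallest that 100000 permutations can give, and 0.00024, or 0.000225 and 0.00146 after Benjamini-Hochberg adjustment over the 45 pairs). The relation of Igtp and Iigp1 remained without RS10_725 and RS10_727, the mice farthest from the median of Igtp (r = 0.77), and after removal of each diet's mean (r = 0.88). Gbp2 and Gbp3, neighbours on chromosome 3, had r = 0.83 and Spearman's coefficient = 0.79 (permutation p of 1e-05 and 6e-05, adjusted p = 0.000225 and 0.00079), and r = 0.79 without RS10_719 and RS10_725. Pairs of immunity-related GTPases had a median r of 0.78, pairs of guanylate-binding proteins 0.53 and mixed pairs 0.65. Leaving out the 2 mice farthest from the median of each pair's first gene lowered these medians to 0.57, 0.44 and 0.58. The mice left out differ between pairs, and RS10_725 stayed in where Gbp3 or Gbp9 was the first gene. Without RS10_725 in every pair, the median r over the 45 pairs was 0.55.

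**Figure D4:**
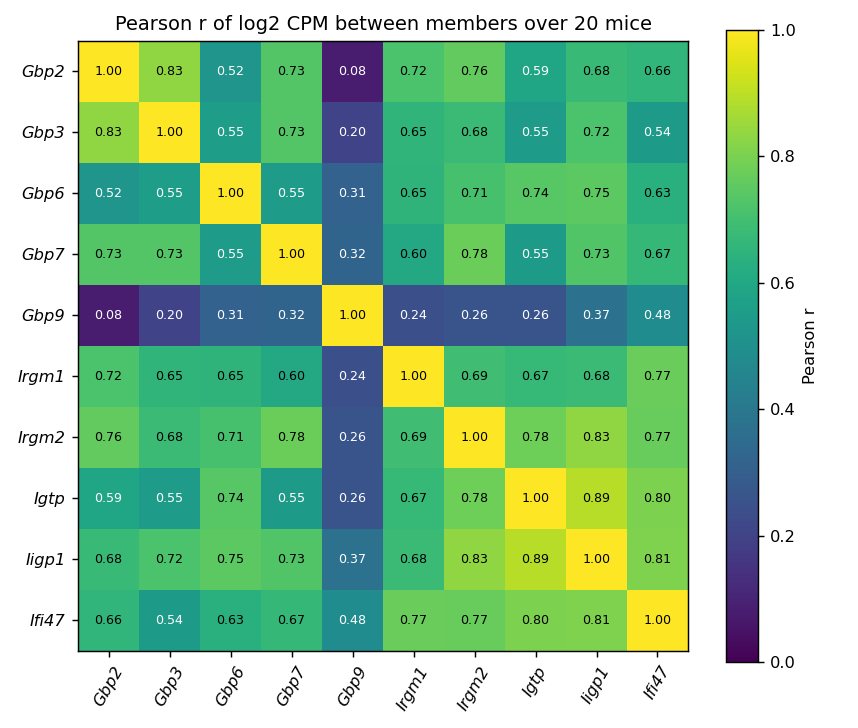
Pearson r of log2 CPM over 20 mice for each pair of members, by colour and number. Values of Gbp9 run from 0.08 with Gbp2 to 0.48 with Ifi47, and the values among the immunity-related GTPases (lower right) run from 0.67 to 0.89.

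Gbp9 had the lowest r with the other members. Its r with the others ran from 0.08 to 0.48, and 1 of its 9 pairs, that with Ifi47, had an adjusted permutation p of at most 0.05 (r = 0.48, adjusted p = 0.0372, Spearman's coefficient = 0.51, adjusted p = 0.0314, and r = 0.36 without RS10_703 and RS10_748). Its r with the mean of the members, itself included, was 0.44, while for the other 9 members it lay between 0.80 and 0.93. In mouse RS10_719, Gbp2 and Gbp3 were the highest of all 20 mice and Gbp9 was at 3.99 CPM, the lowest of its diet.

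Beyond the members, the 10 tested genes whose log2 CPM was most like their mean over the 20 mice were Vav2 (r = 0.87), Irf9 (0.84), Gbp8 (0.80), Itga4 (0.79), Gbp4 (0.79), Tram2 (0.78), Ccn4 (0.78), Gsap (0.77), B2m (0.76) and Tmem123 (0.75). The 95th percentile of r over all tested genes was 0.47. Irf9 is the DNA-binding part of the complex that activates the interferon-stimulated response element, Gbp4 and Gbp8 belong to the family, and B2m is the light chain of class I major histocompatibility molecules. Itga4 is an integrin chain of migrating leukocytes. None of the 10 was called at 10% RPS, with edgeR adjusted p-values from 0.160 to 0.752. Vav2, Irf9, Gbp8, Itga4 and Gbp4 stayed among the 10 in each of the 20 sets that leave out 1 mouse, whereas 4 of the 10 stayed when each diet's mean was removed.

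The signals that act on the members were examined through lists of their pathway, whose counts stand beside 46.8% of all tested genes with a log2 fold change above 0 at 10% RPS and 2.1% with a called trend. Interferon-gamma itself (Ifng) was below the filter, with a mean of 0.031 CPM at 0% RPS and 0.008 CPM at 10% RPS, under the level that 3 counts give in a library. Its receptor chains were abundant, Ifngr1 at 400.6 ± 53.5 and 402.9 ± 38.2 CPM at 0 and 10% RPS and Ifngr2 at 170.2 ± 12.9 and 157.2 ± 10.9 CPM, with log2 fold changes of 0.01 ± 0.11 and -0.11 ± 0.08 (SE). Of 8 tested ligands and receptors 1 had a called trend. Il18, a cytokine that induces interferon-gamma, rose from 101.7 ± 15.7 to 129.1 ± 14.53 CPM (edgeR trend, adjusted p = 0.0372). This trend was called in 12 of the 20 sets without 1 mouse, and not without RS10_725. The type I receptor chain Ifnar2 measured 9.63 ± 1.33 and 8.13 ± 1.27 CPM, with an adjusted p for trend of 0.196.

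In signal transduction, Irf1 stood out. This transcription factor, which acts on GTPase promoters, was the only one of 15 tested genes of the list called at 10% RPS, at 134.1 ± 16.2 CPM in controls and 208.8 ± 25.4 CPM at 10%, with a log2 difference of 0.64 ± 0.10 (edgeR adjusted p = 0.00929). The call at 10% RPS was lost with the 3 mice of disagreeing labels left out (edgeR adjusted p = 0.0728), with groups by the treatment label (0.372), with only the 2 diets in the fit (0.0550), and without RS10_784, where the fold change was 1.49. Its trend was called with the 3 mice left out and in each of 20 sets without 1 mouse. Irf7, a factor of the type I response, also had a called trend, from 45.8 ± 6.97 to 59.4 ± 5.23 CPM (edgeR trend, adjusted p = 0.0489). The trend of Irf7 was called in 5 of the 20 sets, and not without RS10_725 or by limma-voom. Irf8 measured 50.9 ± 1.92 and 62.1 ± 10.1 CPM (edgeR trend, adjusted p = 0.0687), Stat3 164.9 ± 13.2 and 192.9 ± 21.5 CPM (0.165) and Irf2, a repressor, 171.6 ± 16.9 and 143.3 ± 15.9 CPM (0.214). The median log2 fold change of the list at 10% RPS was 0.29, with 13 of 15 genes above 0.

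Among 19 tested other interferon-gamma targets, 16 were higher at 10% RPS, with a median of 0.31, and 1 had a called trend. That was Cxcl10, a chemokine for T cells, with 0.942 ± 0.383 CPM at 0% and 2.32 ± 1.09 CPM at 10% RPS (edgeR trend, adjusted p = 0.0335). The trend of Cxcl10 was called in 15 of the 20 sets without 1 mouse, and not without RS10_725 or by limma-voom. Cd274, a checkpoint ligand, measured 6.82 ± 1.23 and 10.7 ± 1.75 CPM (edgeR trend, adjusted p = 0.0561), Batf2 36.1 ± 2.22 and 49.6 ± 5.51 CPM (0.0618), and the abundant Tapbp, Wars1 and Upp1 had adjusted p-values for trend of 0.239, 0.178 and 0.152. Of 24 type I interferon targets 23 were higher at 10% RPS, with a median of 0.35, and 3 had a called trend. Oas3, a sensor of double-stranded RNA, rose from 1.57 ± 0.773 to 5.02 ± 2.66 CPM (edgeR trend, adjusted p = 0.0241), and the antiviral GTPase Mx1 from 3.51 ± 1.09 to 8.03 ± 2.77 CPM (0.0191). Isg15, a ubiquitin-like modifier, rose from 3.22 ± 0.991 to 6.50 ± 3.33 CPM (0.0434). The trend of Isg15 was called in 8 of the 20 sets without 1 mouse, and not without RS10_725 or by limma-voom. The abundant members of that list, Parp14, Ifih1 and Parp9, had log2 fold changes of 0.30, 0.24 and 0.30, with adjusted p-values for trend of 0.200, 0.140 and 0.187.

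The partners that place these GTPases on vacuoles and act after them had the lowest median with the ligands and receptors. Of 20 tested genes 13 were higher and 7 lower at 10% RPS, with a median log2 fold change of 0.01. The abundant Gabarap (282.0 ± 18.8 and 275.2 ± 10.3 CPM at 0 and 10% RPS), Sqstm1 (269.2 ± 21.2 and 280.0 ± 54.3 CPM) and Gsdmd (228.5 ± 35.6 and 231.7 ± 11.8 CPM) had log2 fold changes of -0.04, 0.06 and 0.02. The exception was Casp4, the mouse caspase that senses bacterial lipopolysaccharide downstream of guanylate-binding proteins. It rose from 29.4 ± 6.50 CPM at 0% RPS through 33.6 ± 8.99 and 44.8 ± 11.2 to 55.7 ± 9.59 CPM at 10% RPS (edgeR trend, adjusted p = 0.0147, log2 fold change of 0.92 with an adjusted p of 0.0659). With the 3 mice of disagreeing labels left out, Irf1 and Casp4 were the only 2 of the 9 pathway genes whose trend stayed called, and with groups by the treatment label 0 of the 9 did. The trend of Casp4 was called in 19 of 20 sets without 1 mouse. Casp1 measured 112.0 ± 12.2 and 136.0 ± 12.7 CPM (edgeR trend, adjusted p = 0.130) and Ptpn1 50.8 ± 7.24 and 56.4 ± 4.18 CPM (0.238).

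Of the other genes of the family, 9 of 18 listed passed the filter, and all 9 were higher at 10% RPS, with a median of 0.34. One trend was called, that of Gm5431, a predicted immunity-related GTPase gene of low level, from 0.729 ± 0.257 to 2.49 ± 0.886 CPM (edgeR trend, adjusted p = 0.0147). It was not called with the 3 mice of disagreeing labels left out. Gbp2b measured 0.535 ± 0.610 and 1.01 ± 0.516 CPM (edgeR trend, adjusted p = 0.204), Gbp4 5.00 ± 1.44 and 6.38 ± 1.81 CPM (0.378), Gbp8 5.80 ± 1.06 and 6.59 ± 1.20 CPM (0.617) and Irgq 33.4 ± 4.94 and 35.0 ± 4.39 CPM (0.638). The lists were drawn up with results of these data known, so that their counts are a description.

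**Figure D5:**
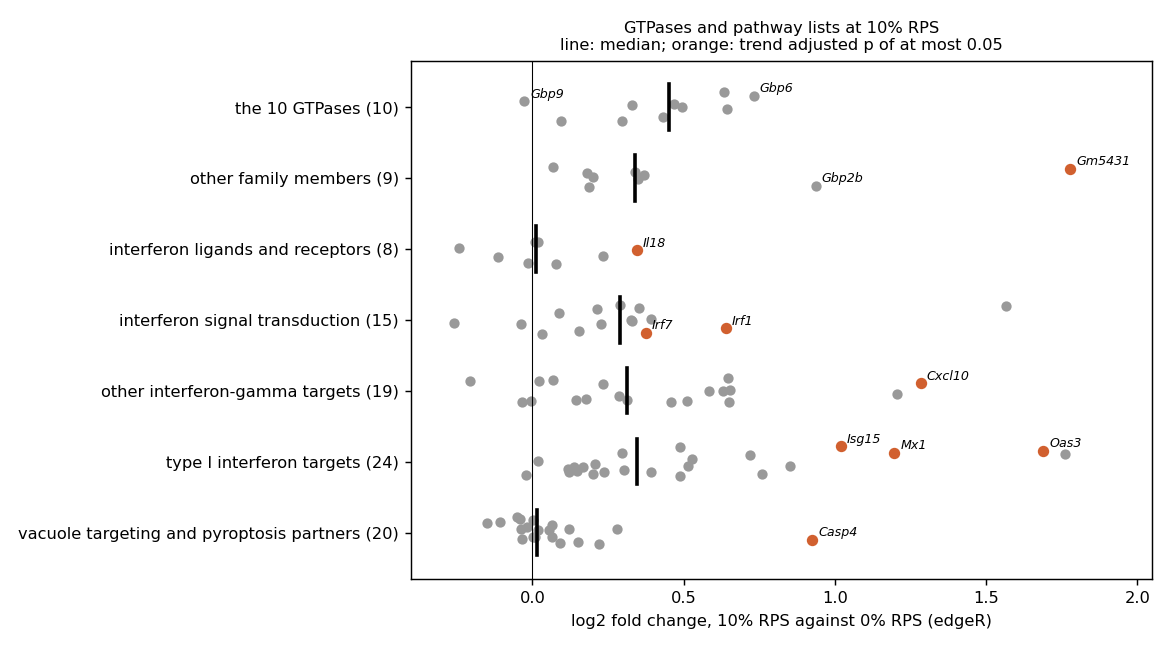
Log2 fold change at 10% RPS against 0% RPS by edgeR (horizontal axis) for the members and for each list, with the number of tested genes in parentheses and the median as a line. Orange points have a trend over RPS with an adjusted p of at most 0.05; no member is orange, and the medians of the members and of the type I targets are 0.45 and 0.35.

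Some members share sequence with neighbours, and their counts are less certain for it. In the annotation, exons of Igtp and Irgm2 overlap on the same strand over 162 bases (3.6% of Igtp), 25.4% of the exonic bases of Gbp6 lie in the predicted gene Gm43302, 3.9% of those of Ifi47 lie in Or2v1, and 1.1% of those of Gbp9 lie in each of Gbp4 and Gbp8. Counts were summed for Igtp with Irgm2, for Gbp6 with Gm43302 and the family gene Gbp10, and for Gbp9 with Gbp4 and Gbp8. Ifi47 was not summed with Or2v1. The log2 fold change at 10% RPS was 0.44 for Igtp with Irgm2, 0.76 for the Gbp6 group and 0.18 for the Gbp9 group, and edgeR called 0 of them. The sum that holds Gbp9 was therefore of opposite sign to Gbp9 alone.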

How the data were processed

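RNA from distal colon of 20 mice was sequenced as one stranded mRNA library per mouse with single-end reads. The authors trimmed bases of low quality, mapped reads to GRCm39 in CLC Genomics Workbench and deposited raw counts per gene, without normalization or pooling. How reads matching several genes were counted is not given in the sources used here, so close paralogs are uncertain. Symbols and positions came from GENCODE release 39 for 26338 of 26619 identifiers. Genes were filtered with filterByExpr (minimum count 10) and scaled by TMM. Differences were tested by quasi-likelihood in edgeR 4.0.16 (R 4.3.3), in one fit over the 4 diets, with Benjamini-Hochberg adjustment. DESeq2 1.42.0 and limma-voom (limma 3.58.1) were alternatives. Adjusted p-values are edgeR's unless another tool is named. CPM used TMM-scaled library sizes, and log2 CPM a prior count of 2. Permutation tests of pairs were two-sided with 100000 permutations and were added to a design that had planned correlations as description. Scripts were tested on simulated data. The members and lists were chosen with earlier results of these data known. Named genes are the members, list genes called in any comparison, the 3 of highest level and the 3 of smallest trend p per list, and the 10 genes most like the members. Gm12250, Gvin3, Gm4951, Ifnb1 and Ifnl3 were not analysed here. Mouse numbers are unique, so no mice are paired. No pair of libraries agreed within sampling noise, with a chi-square per degree of freedom of at least 7.53. Mice were separate animals, and cage or litter is not given in the sources used here.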

Additional observations from a re-analysis of the deposited data

Results flagged for a closer look

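In each diet, the highest or lowest mouse was set against its closest neighbour as a share of the whole spread of 5 mice, for each member and for their sum. Of 44 such tests, 8 passed the critical value, where chance flags about 1 in 20, and tests of members that vary together are not independent. The control mouse RS10_703 gave 6 of them. It held 48.4 CPM of Gbp2, 15.0 CPM of Gbp3, 7.69 CPM of Gbp9, 39.1 CPM of Irgm1 and 8.51 CPM of Iigp1, and 178.3 CPM summed over the members, where the next control mice held 35.3, 10.1, 4.82, 30.3, 4.73 and 129.0 CPM. Mouse RS10_725 at 10% RPS held 76.5 CPM of Gbp2, and the next mouse 49.1 CPM. Mouse RS10_718 at 5% RPS was low in Ifi47, at 3.18 CPM against 5.13 CPM in the next. The cause was not tested for any of these mice.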

How the results depend on the processing

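The sum of overlapping and adjoining family genes was an alternative added after seeing the data. The number of members called was 0 in every comparison run under each alternative, with 2 exceptions, both for the trend. With only the compared diets in the fit and with no fold threshold, the 5 comparisons between diets were run, and not the trend or the test of any difference. DESeq2 called 1 (Irgm2), and over the 20 sets without 1 mouse the number ran from 0 to 1 (Irgm2, without RS10_703). Pathway genes called at 10% RPS numbered 1, and 12 by DESeq2, 0 with groups by the treatment label, 0 without the 3 mice of disagreeing labels, 0 with only the compared diets in the fit, and 0 to 10 without 1 mouse. Those with a called trend numbered 9, and 21 by DESeq2, 0 by the treatment label, 2 without the 3 mice, and 2 to 21 without 1 mouse (2 without RS10_784 and 21 without RS10_727). Of all tested genes, 7 were called at 10% RPS, and 210 by DESeq2, 13 with RLE scaling, 12 with no fold threshold, 3 with only the compared diets, 0 by the treatment label or without the 3 mice, and 5 to 188 without 1 mouse. The trend was called for 375 genes, and for 973 by DESeq2, 0 by the treatment label, 56 without the 3 mice and 24 to 1148 without 1 mouse. The test of any difference called 13, and 349 by DESeq2, 8 by limma-voom or with RLE, 0 by the treatment label or without the 3 mice, and 0 to 42 without 1 mouse. At 5% RPS, DESeq2 called 29 genes and edgeR 0, or 1 with only the compared diets and 0 to 1 without 1 mouse.

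Directions turned for Gbp9 and Gbp3 and for no other member. The log2 fold change of Gbp9 at 10% RPS was 0.0105 by limma-voom, 0.0644 after thinning, 0.18 with overlapping genes summed and -0.10 to 0.18 without 1 mouse, and its trend was 0.00981 after thinning, 0.14 with genes summed and -0.12 to 0.0868 without 1 mouse. The trend of Gbp3 was -0.0408 by the treatment label, -0.0426 without the 3 mice, -0.0102 after thinning and -0.0482 to 0.16 without 1 mouse. Of the 10 genes most like the members, 4 stayed with diet means removed and 7 to 10 without 1 mouse. No paired analysis was possible because mouse numbers are unique to a diet. The cause of these changes was not tested. Precision is limited by 5 mice per diet and by members whose level differs by up to 4.71-fold between mice.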
